A study of Mus musculus with 15 samples.

Results

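Granulocyte-monocyte progenitors (GMP) were set against common myeloid progenitors (CMP), both sorted from the bone marrow of wild type C57Bl/6 mice at steady state. The comparison took 4 of the 15 arrays of the study, 2 of GMP and 2 of CMP, and every probe set annotated with a single gene, which gave 34945 of 45037 probe sets and 18193 genes. Per the labels, GMP were sorted as CD117 high, CD16/32 positive and CD135 negative cells without IL7R, MHC class II and CD11c. CMP were sorted as CD117 high, CD16/32 negative and CD135 positive cells that lacked lineage markers, IL7R, MHC class II and CD11c. A lineage gate is named for CMP and not for GMP, and neither gate names Sca-1 or CD34. Common dendritic cell progenitors (CDP, intermediate CD117, CD135 positive, CD16/32 negative) and bone marrow pre-cDC (low CD117, CD11c positive), with 2 arrays each, entered the fit and serve below as further levels. The mice's age is not given, and the labels do not say that the arrays of a group came from separate animals. The p-values therefore measure only the spread between these samples, which may be technical.

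The marrow makes granulocytes and monocytes through a series of progenitors that lose the potential for other lineages as they go. In the classical scheme CMP can still give red cells, platelets and all myeloid cells, whereas GMP give granulocytes and macrophages. CMP gated on CD135, the Flt3 receptor, are close to multipotent cells that keep lymphoid and dendritic potential. GMP also express genes of primary granule proteins such as elastase and myeloperoxidase, which pass through the endoplasmic reticulum (ER).

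The gate genes followed the labels. Flt3, which encodes CD135, read 35.9 and 31.8 in GMP against 1193 and 1204 in CMP. Fcgr3, which encodes CD16, read 1775 and 1729.9 in GMP against 35.3 and 35.95 in CMP, and Fcgr2b, which encodes CD32, read 723 and 658 in GMP against 218 and 240.3 in CMP. In each of these 3 genes the groups were far apart, as the sort requires, and their differences are no finding. Kit, which encodes CD117 and was gated high in both, read 905 and 1085 in GMP against 1229 and 1209.6 in CMP (log2 difference -0.29, SE 0.114, adjusted p = 0.124) and was not called. Il7r and Itgax, the genes of IL7R and CD11c, were dim on all 4 arrays, at 8.53 to 11.4 in GMP against 28.3 to 29.2 in CMP, and at 13.6 to 14.7 in GMP against 24.5 to 24.6 in CMP. Il7r was called lower (-0.53). Itgax was not called (adjusted p = 0.115) but was called with an offset of 8 in place of 32 (adjusted p = 0.0162) and in a fit of the 4 arrays alone (adjusted p = 0.0243). The granulocytic markers Elane, Mpo, Prtn3 and Ctsg were higher in GMP by 4.55, 0.72, 1.32 and 1.42 on the log2 scale. Dntt, the terminal transferase of early lymphoid progenitors, read 6.41 and 7.79 in GMP against 934 and 1147 in CMP.

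Markers of other cells differed in part with the groups. The counts stand beside 6.56% of all genes called higher in GMP and 9.36% called lower. Of 24 mast cell, basophil and eosinophil genes 7 were higher in GMP, led by Hdc, Cpa3 and Siglecf (3.5, 1.6 and 1.21), and 1 was lower. Their summed intensity was 2397 and 2932 on the GMP arrays against 2231 and 2172 on the CMP arrays. Kit, gated high in both groups, is in this list, and its values given above make up a large part of these sums. The tryptase, chymase and eosinophil peroxidase genes Tpsb2, Cma1 and Epx were dim on all 4 arrays, with 6.36 to 18.9 in GMP against 2.87 to 16.7 in CMP. Of 29 erythroid and megakaryocyte genes 1 (Cd9) was higher and 2 (Blvrb and Zfpm1) were lower. Without GMP replicate 1 these 3 had adjusted p = 0.0506, 0.412 and 0.324, without GMP replicate 2 Cd9 had adjusted p = 0.0952, and without CMP replicate 1 all 3 had adjusted p = 0.0762, 0.345 and 0.285. The summed intensity of the list was 3805 and 7100 in GMP against 9340 and 6132 in CMP, so the 2 arrays of a group differed by more than the group means did. Car1 and Klf1, genes of red cell progenitors, read 967 and 1825 in GMP against 1895 and 1529.8 in CMP, and 108 and 250.2 in GMP against 403 and 186 in CMP. The haemoglobin and platelet genes Hba-a1, Ppbp and Vwf had 1.0 to 7.89 in GMP against 1.0 to 6.19 in CMP. Of 20 mature neutrophil genes 7 were higher and 0 lower, with sums of 5434 and 5253 in GMP against 3202 and 3401 in CMP, led after Wfdc21 and Trem3 by the protease inhibitor gene Slpi (1.78). Mmp9 and Stfa3, of the same list, had 1.0 to 11.5 in GMP against 1.0 to 10.9 in CMP. Of 31 monocyte and macrophage genes 9 were higher and 4 lower, with sums of 19801 and 16870 in GMP against 17854 and 18071 in CMP. The T and NK cell list had 1 called gene of 16, Nkg7 (1790.1 and 1852 in GMP against 345 and 428 in CMP), with sums of 1954 and 2009 in GMP against 498 and 572 in CMP. Cd3e, Cd3d and Cd8b1 had 1.19 to 9.14 in GMP against 1.0 to 12.4 in CMP. The B cell list had 2 of 11 genes lower, with sums of 1283 and 1054 in GMP against 1613 and 1723 in CMP, and Cd79a and Ms4a1 had 5.06 to 7.28 in GMP against 1.85 to 7.52 in CMP. The dendritic cell list had 1 of 23 higher (Clec4a2) and 8 lower, or 3 lower without GMP replicate 2 or with an offset 4 times as large and 4 without CMP replicate 2, with sums of 3111 and 2843 in GMP against 4946 and 5019 in CMP. The genes called lower and the sums include Flt3, a gene of the gate, with 35.9 and 31.8 in GMP against 1193 and 1204 in CMP. This part of the dendritic cell difference follows from the sort. Xcr1 and Siglech had 4.95 to 8.88 in GMP against 5.49 to 7.86 in CMP. The part of such cells in the results below was not tested, and in sorted bulk samples a change in the share of cells and a change per cell cannot be told apart.

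A gene was read at the probe set that was brightest on average in the 8 progenitor arrays, on the log2(intensity + 32) scale, and was called when limma's moderated test gave an adjusted p under 0.05. Of 18193 genes 2897 were called (15.9%), 1194 higher in GMP (6.56%) and 1703 lower (9.36%). Every list count in the text is to be read beside these shares. The shares cover all genes, and in 7007 of them the higher group mean was not above the median of all probe sets. Many lists hold few or no such dim genes, and shares over brighter genes alone were not computed. A list modestly above these shares is therefore not set apart from brighter genes. With at least 2-fold on that scale there were 195 (1.07%) and 217 (1.19%), and these 412 genes became 707 with an offset of 8 in place of 32 and 157 with an offset 4 times as large. The share of calls that were higher, 41.2%, depended on the scaling: it was 52.0% after quantile normalization (1551 higher, 1429 lower) and 54.9% after scaling to a common median (1543 higher, 1266 lower). Among probe sets 4967 of 34945 were called (14.2%), 5.73% higher and 8.49% lower, with 0.838% and 1.01% at 2-fold or more and 56.7% without overlap. Leaving out any 1 array lowered the genes called to 1675 without GMP replicate 1, 1689 without GMP replicate 2, 2076 without CMP replicate 1 and 1554 without CMP replicate 2. The arrays of the groups did not overlap in 10503 genes (57.7%), so non-overlap by itself sets a gene apart little. This holds for each gene below whose arrays are said not to overlap or to lie all on one side. The median difference of all genes was -0.01. The log2 differences of dim genes depend on the added 32. The genes named here have 229 further probe sets, of which 141 kept the direction and the side of the threshold, 61 kept the direction but not the call, and 27 had the opposite sign. The 61 are of Abca1, Abcg1, App, Bcl11a, Calcrl, Casp6, Cbx2, Cebpd, Copb2, Ddit3, Edem2, Egfl7, Epb41l4b, Ero1b, Fosl2 and Gadd45b. Also of Gcnt2, Gimap7, Gla, H2-Ab1, H2-D1, Hdac9, Hspa5, Ier5, Il1r1, Il6st, Klf4, Lman1, Lta4h, Meis1, Mt1 and Papss2. The rest are of Pdia3, Pfkp, Prdx4, Ptger3, Ptger4, Rpn1, Rsad2, Runx1, Satb1, Sec63, Spry2, Tap1, Vcam1, Xaf1 and Xbp1. For some of these genes another probe set pointed the other way without a call: Abcb10, Afap1, Arsb, Bcl11a, Calcrl, Cdc45, Epb41l4b, Fcgr2b, Galns, H2-Aa, Il6st, Mgst1, Pdia4, Pdia6, Rtp4, Runx1, Slc2a3, Tap1, Tet1, Tgfbr2 and Zfpm1.

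The granule programme set the scale of the comparison. Of 11 primary granule genes 9 were higher in GMP and 0 lower (median 1.32), and of 18 secondary and tertiary granule genes 11 were higher and 2 lower (median 0.56). Ms4a3 and Prom1 led the first list beside Elane (4.58 and 3.0). Both encode membrane proteins and not granule contents, and the list also holds Mgst1, named again below among redox genes. As members of the list they took no part in the ranking of rises below. S100a8, S100a9 and Hp led the second at 5.05, 3.88 and 3.21. The 2 that were lower were Padi4 (-0.82) and Mmp8 (-0.58, adjusted p = 0.0554 without GMP replicate 2).

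Outside the granule lists the 20 largest rises began with Fcgr3, a gene of the gate. Gda, the guanine deaminase of purine breakdown, read 1202 and 1046 in GMP against 30.2 and 22.9 in CMP (log2 difference 4.3, SE 0.110, adjusted p = 1.27e-10). Hdc, the histidine decarboxylase that makes histamine, read 486 and 523 in GMP against 16.5 and 14.2 in CMP (log2 difference 3.5, SE 0.0956, adjusted p = 1.89e-10). Gstm1, a glutathione transferase, read 2601 and 2754 in GMP against 198 and 238 in CMP (log2 difference 3.44, SE 0.155, adjusted p = 1.77e-08). On these 3 enzymes both GMP arrays lay far above both CMP arrays, and non-overlap was part of the rule that chose the 20 genes. Sgms2, a sphingomyelin synthase, read 360.4 and 368 in GMP against 7.28 and 10.97 in CMP, and B4galt6, which makes lactosylceramide, read 1095 and 1103 in GMP against 117 and 152 in CMP (log2 differences 3.27 and 2.77). Hsd11b1, which activates glucocorticoids, had 396 and 388 in GMP against 21.5 and 17.9 in CMP (3.04), and Papss2, which makes the sulfate donor of the cell, had 531 and 473 in GMP against 42.5 and 33.8 in CMP (2.93). Gsr, the glutathione reductase, read 1528 and 1613 in GMP against 234 and 192 in CMP (2.72). Also in the set were Trem3, a receptor of the TREM family (665 and 603 in GMP against 39.3 and 39.7 in CMP), App, the amyloid precursor protein (1120.2 and 1024 in GMP against 114 and 123 in CMP), the glypican Gpc1 (2.69) and Vcam1, the integrin ligand (156 and 174 in GMP against 1.93 and 5.29 in CMP). Vcam1 stood at 2.47. The others were Wfdc21, Dmkn, Rgcc, Afap1, Mtus1, Vat1 and the oxidase gene Cybb, at 2.43 to 3.39. Both CMP arrays of Wfdc21, Vcam1, Sgms2, Dmkn and Hdc were at or below the median intensity of the array, so the sizes of these differences depend on the offset. Sizes of other genes with CMP values near or below 32, such as Fcgr3, Gda and Hsd11b1, depend on it too, and so does the ranking. Wfdc21 and Trem3 belong to the mature neutrophil list and Hdc to the mast cell and basophil list.

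Among the 20 largest falls, Ctla2a, a cysteine protease inhibitor, read 26.7 and 36.2 in GMP against 811 and 1105 in CMP (log2 difference -3.95, SE 0.211, adjusted p = 9.40e-08). Wfdc17, a small secreted protein, read 8.34 and 9.2 in GMP against 393 and 479.9 in CMP (log2 difference -3.52, SE 0.123, adjusted p = 1.89e-09). Angpt1, the Tie2 ligand of stem and progenitor cells, read 76.98 and 107 in GMP against 800.2 and 1032 in CMP (log2 difference -2.93, SE 0.201, adjusted p = 8.69e-07). None of these 3 genes overlapped between the groups, which was part of the rule that chose them. Rgs1, a regulator of G protein signalling, read 28.1 and 32.9 in GMP against 274 and 485 in CMP (-2.67). Plek, the pleckstrin of blood cells, read 118 and 135 in GMP against 727 and 948 in CMP (-2.45), and Aff3, a nuclear protein of lymphoid cells, read 146 and 193 in GMP against 898 and 1039 in CMP (-2.32). Gcnt2 and Slc35d3, a glycosyltransferase and a sugar transporter, were lower by log2 differences of -2.59 and -2.6. Egfl7 and Calcrl, a secreted factor and a receptor of endothelial and stem cells, stood at -2.58 and -2.24. The remaining genes were Dntt and Flt3 as above, Gimap6, Gimap1, Hmga2, Gpr171, Ifi27l2a and H2-Ob, which belong to lists described below, and Myl10 and Epb41l4b (-2.35 and -2.27). The sizes for Dntt, Wfdc17, Gimap6, Slc35d3, Gimap1, Myl10 and Ifi27l2a depend on the offset in the same way, since both GMP arrays were below the array median. Those for Flt3, Ctla2a, Rgs1, H2-Ob and Epb41l4b, with GMP values near or below 32, depend on it too.

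**Figure D1:**
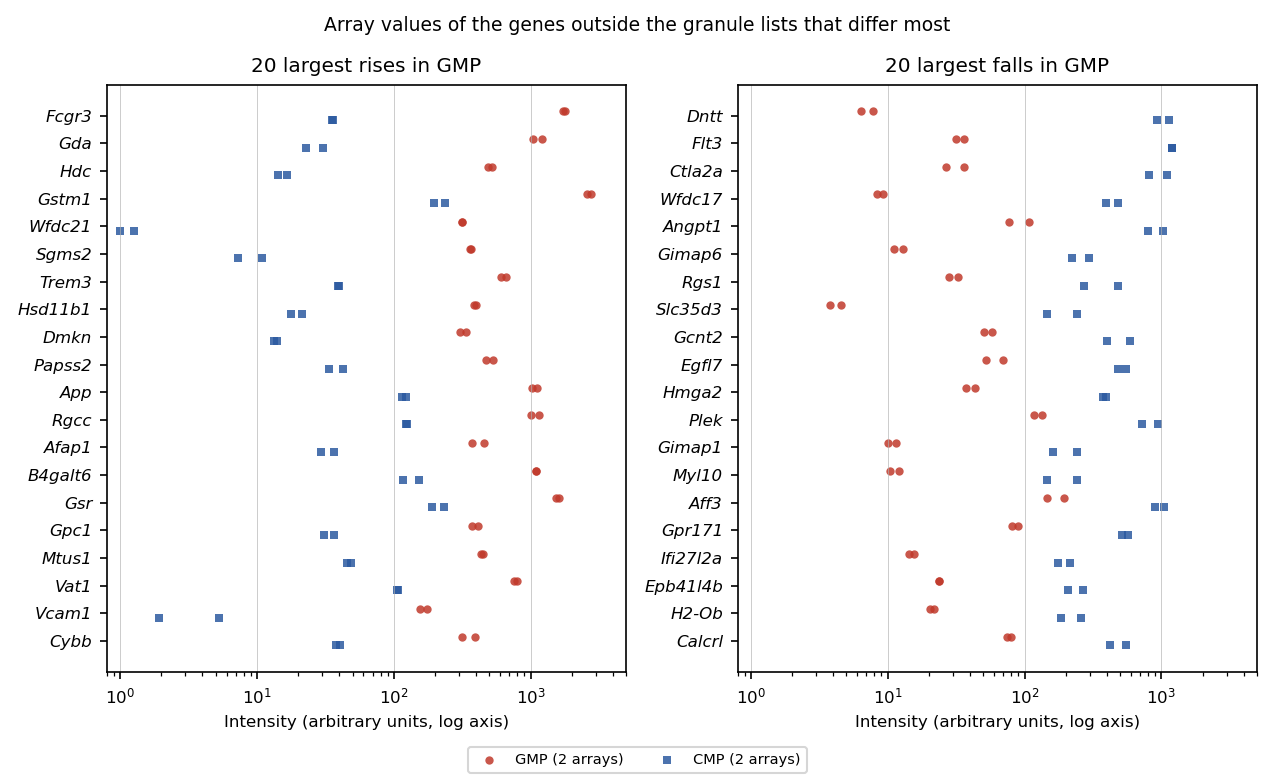
Intensity on each array (arbitrary units, log axis) of the 20 genes with the largest rises and the 20 with the largest falls in GMP against CMP outside the granule lists, with circles for the 2 GMP arrays and squares for the 2 CMP arrays. GMP and CMP points are apart in all 40 genes, since non-overlap was part of the rule that chose them.

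Outside granule content, genes of the secretory pathway rose widely in the lists used. All lists in the text were chosen with earlier results of these data known, so their counts are descriptive and no independent test. Proteins bound for granules enter the ER through the translocon, receive N-linked sugars, are folded by chaperones and disulfide isomerases, and leave in COPII vesicles. The unfolded protein response, run by the factors XBP1 and ATF6, adjusts this machinery to the load. Of 40 ER chaperone and unfolded protein response genes 29 were called higher in GMP and 1 lower, against 6.56% and 9.36% of all genes. The median was 0.66, against -0.01 for all genes.

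Sdf2l1, a cofactor of the ER HSP70 system, read 1296 and 1144 in GMP against 499.5 and 305 in CMP (log2 difference 1.56, SE 0.175, adjusted p = 5.82e-05). Ero1a, the oxidase that feeds disulfide formation, read 832 and 769 in GMP against 273 and 280.1 in CMP (log2 difference 1.43, SE 0.123, adjusted p = 6.05e-06). The disulfide isomerases Pdia4 and P4hb had 520.4 and 465 in GMP against 228 and 222 in CMP, and 2967 and 3079.5 in GMP against 1428 and 1544 in CMP (1.03 and 1.01). On all 4 genes both GMP arrays were above both CMP arrays. Calr, the lectin chaperone calreticulin, read 4423 and 4637 in GMP against 2118 and 2478 in CMP (log2 difference 0.97, SE 0.0975, adjusted p = 2.26e-05). Edem2, which marks misfolded glycoproteins for removal, Manf, a secreted stress protein, and Creld2, another ER stress protein, were higher by 0.96, 0.91 and 0.88. The call of Calr holds for all 3 of its probe sets. Ddit3, the death-promoting factor CHOP, was the member that fell, with 31.2 and 39.3 in GMP against 63.6 and 69.03 in CMP (log2 difference -0.55, SE 0.114, adjusted p = 0.00554). Its adjusted p was 0.0846 without GMP replicate 1 and 0.0625 without CMP replicate 2, and its brightest probe set in the full set of 15 arrays gave -0.30 (adjusted p = 0.148).

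The ER stress response element, a site that ATF6 and NF-Y bind, has the letters CCAAT, then 9 bases of any kind, then CCACG. It was searched on both strands in the 250 bases before the RefSeq start of each gene (GRCm38.p6). It was present in 35 of 27025 genes (0.1295%) and in 10 of the 35 listed ER genes that have a window (28.6%). Among those called higher 7 of 27 held it, and among those not called 3 of 7, so the share was not higher among those that rose. None of 29 translocon and 33 ER to Golgi genes with a window had a match. The 7 called genes with a match are shown so that the letters can be read beside their values, with the element's fixed letters in capitals.
Calr (chr8:84847060-84847108, minus strand): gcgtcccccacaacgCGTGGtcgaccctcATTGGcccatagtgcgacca
Creld2 (chr15:88819505-88819553, plus strand): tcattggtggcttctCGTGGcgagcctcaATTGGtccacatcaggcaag
Pdia6 (chr12:17266476-17266524, plus strand): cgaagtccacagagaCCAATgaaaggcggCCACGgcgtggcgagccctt
Ero1b (chr13:12565667-12565715, plus strand): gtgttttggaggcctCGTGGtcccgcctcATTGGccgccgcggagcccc
Dnajc3 (chr14:118937812-118937860, plus strand): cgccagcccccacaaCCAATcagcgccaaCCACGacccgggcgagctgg
Hspa5 (chr2:34772010-34772058, plus strand): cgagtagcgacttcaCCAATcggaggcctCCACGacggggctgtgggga
Hsp90b1 (chr10:86705518-86705566, minus strand): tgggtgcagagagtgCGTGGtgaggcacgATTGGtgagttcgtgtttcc
Each is written 5′ to 3′ on its gene's strand. In Calr, Creld2, Ero1b and Hsp90b1 the element runs the opposite way and appears as its reverse complement. Hsp90b1 held a second copy that is not shown. A match of letters describes the window and does not show binding.

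Of these 7 genes Hspa5, the ER HSP70 chaperone BiP, read 4353 and 4065 in GMP against 2473 and 2572 in CMP (log2 difference 0.73, SE 0.0674, adjusted p = 1.14e-05). Hsp90b1, the ER HSP90, read 3629 and 3357 in GMP against 2254 and 2239 in CMP (log2 difference 0.63, SE 0.0711, adjusted p = 6.23e-05). Dnajc3, which protects translation under ER load, read 1418 and 1284 in GMP against 789 and 742 in CMP (log2 difference 0.79, SE 0.110, adjusted p = 0.000325). In each of the 3 the gap between the groups exceeded the gap between arrays of a group. Pdia6, an isomerase, stood at 0.88, and Ero1b, a second oxidase, at 0.81. Differences of the 7 ran from 0.63 to 0.97, within the range of called members that had no match. Hspa5, Hsp90b1, Dnajc3, Pdia6 and Ero1b were named for their match.

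**Figure D2:**
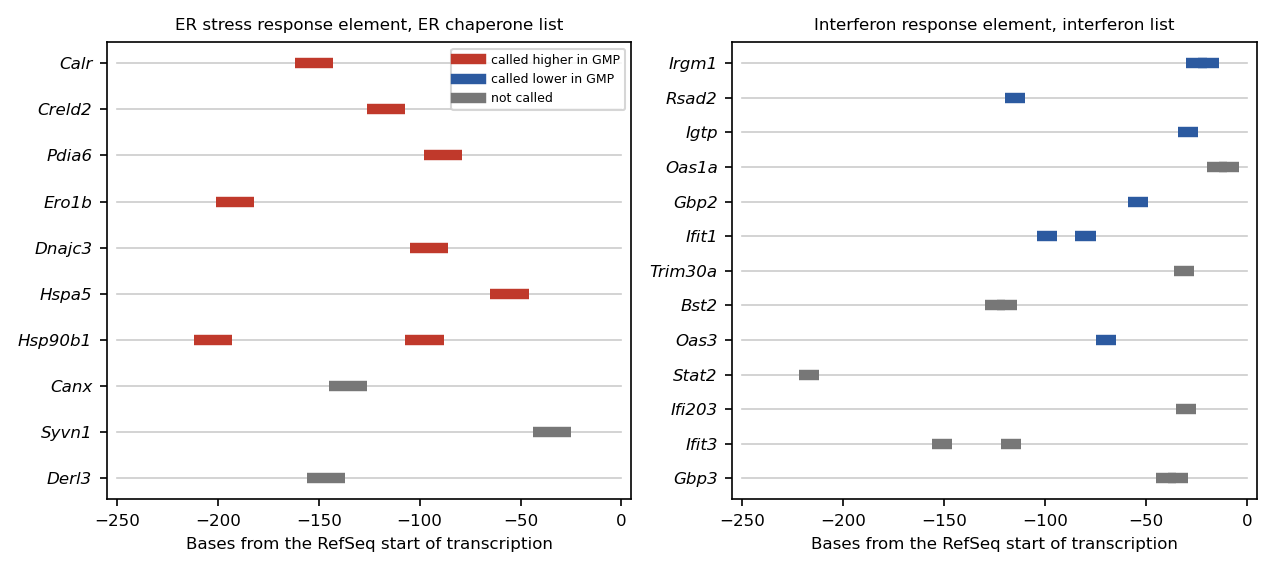
Matches of the ER stress response element (left, ER chaperone list) and of the interferon response element (right, interferon list) in the 250 bases before the RefSeq start, in bases from the start, 1 line per gene that has a match. Red marks genes called higher in GMP, blue genes called lower and grey genes not called; 7 of 10 genes on the left are red and 6 of 13 on the right are blue.

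The next steps of secretion rose with smaller differences. Of 40 translocon, signal peptide and N-glycosylation genes 24 were called higher and 0 lower (median 0.37). Ssr2, a subunit of the translocon-associated complex, read 1157 and 1112 in GMP against 682 and 484 in CMP (log2 difference 0.94, SE 0.154, adjusted p = 0.00113). Sec63, which works with the translocon channel, read 307 and 310.0 in GMP against 166 and 179 in CMP (log2 difference 0.74, SE 0.142, adjusted p = 0.00349). Lman1, a cargo lectin of the ER exit route, read 876 and 867 in GMP against 531 and 518 in CMP (log2 difference 0.7, SE 0.105, adjusted p = 0.000589). The arrays of the groups did not overlap on any of the 3. Of 5 probe sets each, 2 were called higher for Sec63 and 2 for Lman1. Subunits of the oligosaccharyltransferase, which attaches N-linked sugars, rose as well, with 0.68 for Rpn2, 0.66 for Ddost and 0.66 for Rpn1. The count of 24 was 14, 12, 14 and 12 without GMP replicate 1, GMP replicate 2, CMP replicate 1 and CMP replicate 2.

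Of 38 ER to Golgi genes 17 were called higher and 0 lower (median 0.33). The COPII coat gene Sec24d read 299 and 276 in GMP against 106 and 83.5 in CMP (log2 difference 1.34, SE 0.156, adjusted p = 7.91e-05). Copb2, a subunit of the COPI coat, read 717 and 725 in GMP against 391.9 and 419.9 in CMP (0.78), and Gorasp2, a Golgi stacking protein, read 982 and 984 in GMP against 595 and 536 in CMP (0.77). All 3 were without overlap between the groups, as were 57.7% of all genes. The count of 17 was 10 without GMP replicate 1, 11 without GMP replicate 2 and 9 without CMP replicate 2.

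The lysosome list, whose enzymes share this route, had 17 of 38 genes higher and 1 lower (median 0.23), or 11 higher without GMP replicate 1. Arsb, an arylsulfatase, read 1332 and 1539 in GMP against 413 and 443 in CMP (log2 difference 1.67, SE 0.0998, adjusted p = 2.33e-07). Gla, the alpha-galactosidase, read 205 and 180.1 in GMP against 79.5 and 66.3 in CMP (log2 difference 1.1, SE 0.119, adjusted p = 4.47e-05). Galns, a second sulfatase, and Atp6v1a, a subunit of the proton pump, stood at 0.97 and 0.73. Lamp1, a major membrane protein of the lysosome, had 2211 and 2183 in GMP against 1392 and 1351 in CMP (0.67). Igf2r, the receptor that sorts lysosomal enzymes, was the gene that fell (-0.33). Its adjusted p was 0.267, 0.0747 and 0.244 without GMP replicate 1, GMP replicate 2 and CMP replicate 1, and 0.102 after quantile normalization.

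**Figure D3:**
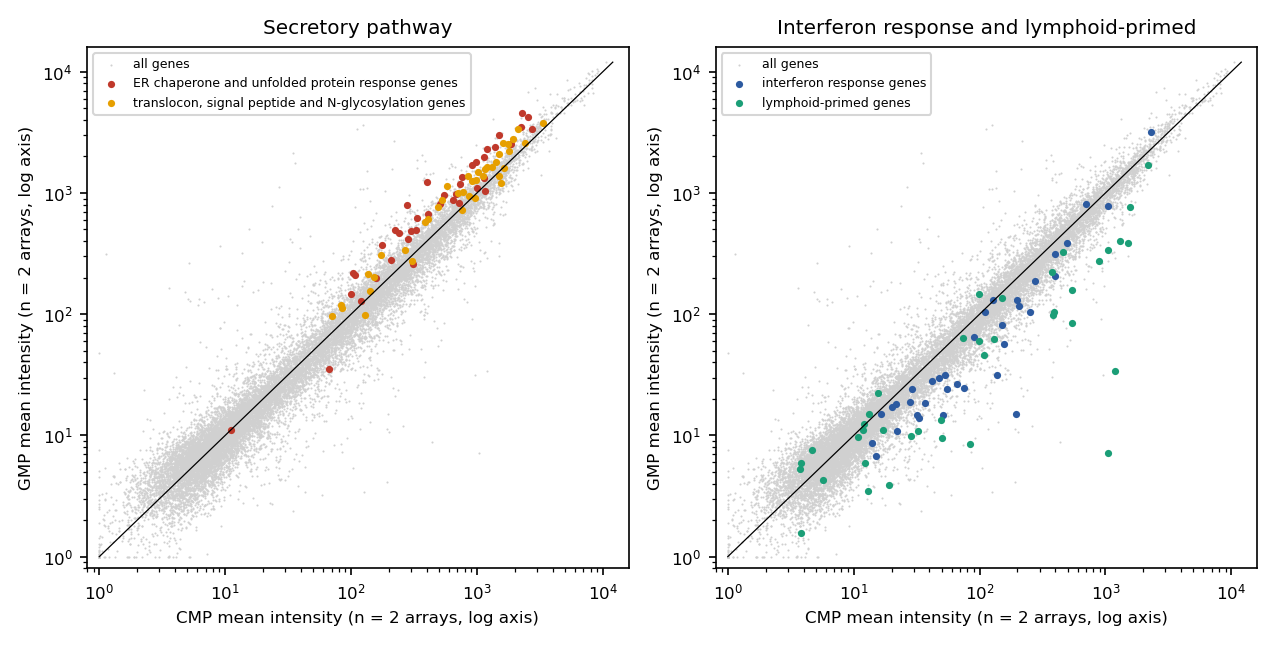
Group mean intensity of all genes in GMP (vertical, log axis) against CMP (horizontal, log axis), n = 2 arrays each, with the line of equal intensity. Left, the ER chaperone and translocon lists lie mostly above the line (29 and 24 of 40 genes each called higher in GMP); right, the interferon and lymphoid-primed lists lie mostly below it (20 of 35 and 24 of 39 called lower).

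Other protein lists moved less, beside 6.56% of all genes called higher and 9.36% called lower. Of 29 tRNA synthetase and translation factor genes 7 were higher and 0 lower (median 0.14), led by Nars and Eif4a1 (0.62 and 0.48), or 5, 4, 4 and 4 higher with each array left out and 4 with no intensity trend. Of 27 cytosolic ribosomal protein genes 5 were higher and 3 lower (median 0.03), or 3 higher without GMP replicate 1, GMP replicate 2 or CMP replicate 1, after quantile normalization or with no intensity trend, and 5 lower in a fit of the 4 arrays alone. Of 35 ribosome biogenesis genes 1 was higher and 4 lower, although the median was 0.12, and 1 was lower whichever array was left out and after common median scaling. Of 31 proteasome genes 4 were higher and 1 lower, and of 26 cytosolic chaperone genes 2 were higher and 3 lower. Without GMP replicate 1, GMP replicate 2 or CMP replicate 2, 0 proteasome genes were called higher, and 2 were without CMP replicate 1, while the cytosolic chaperones called lower were 0 or 1 whichever array was left out and 1 after common median scaling.

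Glycolysis and the pentose phosphate pathway, which split sugar for energy and for NADPH, also rose. Of 26 genes 17 were higher and 2 lower (median 0.44), or 11 higher without GMP replicate 1. Pgd, a dehydrogenase of the pentose phosphate pathway, read 2318 and 2617 in GMP against 969 and 983 in CMP (log2 difference 1.31, SE 0.104, adjusted p = 3.22e-06). Pfkp, a phosphofructokinase, read 283 and 322 in GMP against 126 and 127 in CMP (log2 difference 1.08, SE 0.111, adjusted p = 2.98e-05). Ldhb, a lactate dehydrogenase, read 236 and 212 in GMP against 84.5 and 109 in CMP (log2 difference 1.0, SE 0.118, adjusted p = 8.78e-05). Both GMP arrays were above both CMP arrays on these 3 genes. Hk3, a hexokinase of myeloid cells, had 1638 and 1672 in GMP against 765 and 895 in CMP (0.97). The genes that fell were Slc2a3, a glucose transporter (-1.0), and Pfkm, another phosphofructokinase (57.7 and 79.3 in GMP against 124 and 111 in CMP, log2 difference -0.58). Pfkp was thus higher and Pfkm lower in GMP at the probe sets read. Other probe sets of Pfkp gave 0.131 and 0.151 and were not called (adjusted p = 0.571 and 0.293). Pfkm stood at -0.43 without GMP replicate 1 and -0.52 without CMP replicate 1, and was not called in either fit. The tricarboxylic acid cycle and oxidative phosphorylation list had 6 of 46 genes higher and 1 lower (median 0.09), or 3, 1, 3 and 1 higher with each array left out. The number higher was 10 after common median scaling, and 3 after quantile normalization or with no intensity trend.

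Genes that make and remove oxidants shifted in both directions. The NADPH oxidase makes superoxide in phagocytes, and 6 of its 8 listed genes were higher in GMP and 0 lower (median 0.58), or 5, 4, 4 and 5 higher with each array left out. Cybb, the catalytic subunit, read 393 and 314 in GMP against 40.2 and 38.1 in CMP (log2 difference 2.43, SE 0.119, adjusted p = 4.20e-08). Hvcn1, the proton channel that balances its charge, read 465 and 487 in GMP against 108 and 127 in CMP (log2 difference 1.77, SE 0.117, adjusted p = 6.10e-07). Cyba, the partner of Cybb in the membrane, read 807 and 704 in GMP against 439 and 406 in CMP (log2 difference 0.79, SE 0.127, adjusted p = 0.000967). All 3 were higher on each GMP array than on either CMP array, and Cyba differed least. Ncf4, a cytosolic subunit, stood at 0.77.

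Of 34 redox and glutathione genes 6 were higher and 3 lower (median 0.06), or 4 higher whichever array was left out. The 4 largest rises were glutathione enzymes, with Gstm1 and Gsr above and the microsomal transferases Mgst2 (569 and 499 in GMP against 127 and 159.9 in CMP, 1.69) and Mgst1 (1392 and 1144 in GMP against 365 and 384 in CMP, 1.67). The falls were peroxide-removing enzymes: Prdx4, the peroxiredoxin of the ER, at 451 and 368 in GMP against 809 and 817 in CMP (-0.94), Prdx2 at 1066 and 1023 in GMP against 1837 and 1696 in CMP (-0.74), and Gpx7 at -0.37 (adjusted p = 0.144 without GMP replicate 2 and 0.103 without CMP replicate 2). Prdx4 therefore fell while the other ER folding genes named above rose. Alas1, the first enzyme of haem synthesis, read 2006 and 2127 in GMP against 369 and 366 in CMP (log2 difference 2.39, SE 0.120, adjusted p = 5.37e-08). It was 1 of 3 of 22 haem and iron genes that rose, with the metallothionein Mt1 (0.89) and the mitochondrial transporter Abcb10 (0.65, adjusted p = 0.0546 without GMP replicate 1 and 0.0527 without CMP replicate 2), and 0 fell. The 3 became 5 without CMP replicate 1. The list's median was 0.02.

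Lipid genes gave single large differences without a common direction. In the fatty acid oxidation and storage list 5 of 30 genes were higher and 4 lower (median 0.06), with 3 higher without CMP replicate 2 and 2 lower without GMP replicate 2 or CMP replicate 2 or after common median scaling. Dgat2, which completes triglyceride synthesis, read 104 and 122 in GMP against 26.2 and 27.6 in CMP (log2 difference 1.3, SE 0.0968, adjusted p = 1.79e-06). Plin2, which coats lipid droplets, read 632 and 548 in GMP against 300.4 and 222 in CMP (log2 difference 1.09, SE 0.159, adjusted p = 0.000467). Abca1, a cholesterol exporter, read 26.1 and 31.7 in GMP against 148 and 156 in CMP (log2 difference -1.6, SE 0.115, adjusted p = 1.36e-06), and Abcg1, a second exporter, stood at -0.86. Only 1 of 3 probe sets of Abca1 and 1 of 2 of Abcg1 was called. Lpl, the lipoprotein lipase, was also higher (1.07). Lta4h, which makes leukotriene B4, read 4020.2 and 4143 in GMP against 1439 and 1229 in CMP (log2 difference 1.59, SE 0.103, adjusted p = 4.97e-07), whereas the prostaglandin E2 receptor genes Ptger4 and Ptger3 were lower (-1.01 and -0.91). In all, 3 of 22 eicosanoid genes were higher and 4 lower, with 1 higher whichever array was left out and 2 lower without CMP replicate 2.

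Among 31 myeloid transcription factor genes 8 were higher and 6 lower (median 0.01), or 4 lower without GMP replicate 2 or CMP replicate 1 and 3 without CMP replicate 2. Gfi1, a repressor needed for neutrophils, read 543 and 585 in GMP against 117 and 137 in CMP (log2 difference 1.91, SE 0.108, adjusted p = 1.49e-07). In the C/EBP family, whose members drive granulocyte genes, 3 were higher, and Cebpg was listed beside them. Cebpe, of the same family, had no probe set annotated with it alone and was not read. Another probe set of Cebpd gave 0.213 and was not called (adjusted p = 0.149). Cebpb read 754 and 659.8 in GMP against 273 and 299.8 in CMP, Cebpd 697 and 704 in GMP against 303 and 327 in CMP and Cebpa 692 and 743 in GMP against 344 and 412 in CMP. Their log2 differences were 1.21, 1.08 and 0.87, and the groups did not overlap on any of them. Xbp1, a factor of the unfolded protein response and of secretory cells, read 1925 and 2006 in GMP against 1066 and 1203 in CMP (log2 difference 0.78, SE 0.0843, adjusted p = 4.34e-05). Klf4, a monocyte factor, stood at 0.76. Irf1, an interferon regulatory factor, and Runx1, a factor of stem and progenitor cells, were lower, with 301 and 279 in GMP against 536 and 615 in CMP and 446 and 457 in GMP against 703 and 809 in CMP (-0.91 and -0.7).

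Receptors changed in both directions. Of 37 cytokine receptor genes 8 were higher and 13 lower (median -0.14). The 13 include Flt3 and Il7r, which are genes of the gate. Ifngr1, the interferon gamma receptor, read 1502 and 1572 in GMP against 784 and 716 in CMP (log2 difference 1.01, SE 0.0943, adjusted p = 1.30e-05). Csf2ra and Csf2rb, the chains of the GM-CSF receptor, read 911 and 935 in GMP against 442 and 502 in CMP, and 846 and 803 in GMP against 454 and 486 in CMP (0.92 and 0.77). Both GM-CSF receptor chains were higher on each GMP array than on either CMP array. The receptors that fell most besides Flt3 were Il1r1 (16.1 and 17.4 in GMP against 89.9 and 152 in CMP, -1.62), Il17ra (231 and 287 in GMP against 656 and 757 in CMP, -1.35) and Il6st, the shared chain of the interleukin 6 family (327 and 269 in GMP against 712 and 686 in CMP, -1.15). The receptors of interleukin 1 and 17 sense inflammation.

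Of 19 Fc receptor and ITAM adaptor genes 6 were higher and 0 lower (median 0.12). Besides the gate genes Fcgr3 and Fcgr2b these were led by Clec5a, a lectin receptor, at 204 and 173 in GMP against 16.8 and 11.6 in CMP (log2 difference 2.25, SE 0.101, adjusted p = 1.68e-08), and Fcer1g, the shared signalling chain, at 1182 and 973 in GMP against 631 and 686 in CMP (0.68). Of 24 Toll-like and pattern receptor genes 5 were higher and 2 lower (20.8% and 8.33%, against 6.56% and 9.36% of all genes). They were led by Irak3, an inhibitor of Toll-like signalling, at 153 and 186 in GMP against 41.9 and 41.99 in CMP (1.44), and Cd14 (0.71), with 3 higher without GMP replicate 1 or CMP replicate 2. Of 36 adhesion genes 8 were higher and 4 lower. After Vcam1 these were led by Itgb2, the beta chain of leukocyte integrins, at 152 and 197 in GMP against 48.6 and 53.5 in CMP (1.31), and Itga1 (1.06). Itgb7, the beta chain of gut-homing integrins, was lower, at 36.2 and 37.4 in GMP against 142 and 123 in CMP (-1.26). The adhesion genes called higher were 4 without GMP replicate 1 or 2, and those called lower were 1 without CMP replicate 2 and 2 without GMP replicate 1 or after common median scaling, but 7 with the filter on dim probe sets. Plxnb2, a semaphorin receptor, was lower (52.97 and 45.97 in GMP against 168 and 192 in CMP, -1.38) and the semaphorin Sema4a higher (0.9).

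Stem cell genes were lower in GMP. Of 29 stem cell transcription factor genes 19 were called lower in GMP and 0 higher, against 9.36% and 6.56% of all genes (median -0.63). Hmga2, a chromatin protein of self-renewing cells, read 37.1 and 43.1 in GMP against 394 and 375 in CMP (log2 difference -2.53, SE 0.111, adjusted p = 1.51e-08). Meis1, a cofactor of HOX proteins, read 47.7 and 46.98 in GMP against 224 and 285 in CMP (log2 difference -1.84, SE 0.121, adjusted p = 5.47e-07). Hoxa9, its partner, read 337 and 301 in GMP against 1000.2 and 1259 in CMP (log2 difference -1.72, SE 0.145, adjusted p = 5.37e-06). GMP arrays were low and close to each other on all 3 genes, and CMP arrays were high. Hlf, a factor of stem cells, read 29.4 and 35.3 in GMP against 112 and 239 in CMP (log2 difference -1.62, SE 0.206, adjusted p = 0.000165), with its CMP arrays far apart and both above GMP.

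Of 28 surface and regulator genes of stem and multipotent cells 15 were lower and 1 higher (median -0.41). Adgrg1, an adhesion receptor, read 150.4 and 212 in GMP against 749.9 and 831 in CMP (log2 difference -1.96, SE 0.170, adjusted p = 6.71e-06), and Ifitm1, a membrane protein, read 308 and 241 in GMP against 1068 and 1039.8 in CMP (log2 difference -1.83, SE 0.128, adjusted p = 9.82e-07). Both groups were without overlap on these genes, as on Angpt1 above. Gng11 was the gene that rose (0.43), and its adjusted p was 0.120, 0.0835 and 0.149 without GMP replicate 1, GMP replicate 2 and CMP replicate 1.

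Genes of lymphoid priming fell in 24 of 39 cases and rose in 0 (median -0.51). Gpr171, an orphan receptor, read 89.4 and 81.2 in GMP against 520.0 and 570.0 in CMP (log2 difference -2.3, SE 0.122, adjusted p = 8.90e-08). Satb1, which organises chromatin in lymphoid cells, read 383 and 389 in GMP against 1418 and 1579 in CMP (log2 difference -1.87, SE 0.0991, adjusted p = 8.78e-08). Lsp1, an actin-binding protein of leukocytes, read 97.8 and 100.4 in GMP against 348 and 415 in CMP (log2 difference -1.65, SE 0.125, adjusted p = 2.01e-06). No array of GMP reached a CMP array on these 3. Cd27, a receptor of the TNF family, Mef2c, a factor of lymphoid and dendritic progenitors, and Bcl11a, a factor of B cell development, were lower, with log2 differences of -1.63, -1.62 and -1.61. Dntt, Flt3 and Il7r belong to this list. Flt3 was gated, and IL7R was gated out of both groups.

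The GIMAP genes, GTPases of lymphocyte survival that lie in a cluster, had 5 of 8 lower and 0 higher (median -0.69). Gimap6 read 11.1 and 12.9 in GMP against 224 and 296 in CMP (log2 difference -2.72, SE 0.125, adjusted p = 2.07e-08). Gimap1 read 10.1 and 11.4 in GMP against 163 and 241 in CMP (log2 difference -2.43, SE 0.136, adjusted p = 1.46e-07). Gimap9 read 16.6 and 21.8 in GMP against 66.00 and 85.4 in CMP (log2 difference -1.07, SE 0.111, adjusted p = 2.94e-05). All 3 were near or below the median intensity of the arrays in GMP, so their differences rest on the CMP level. Gimap8 and Gimap7 stood at -0.9 and -0.47, and Gimap7 had adjusted p = 0.0734 without GMP replicate 1 and 0.0656 without CMP replicate 2.

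Chromatin regulators fell in 12 of 39 cases and rose in 1 (median -0.27), with 7 lower without CMP replicate 2. After Satb1 the largest fall was in Cbx2, a Polycomb subunit, at 50.3 and 64.1 in GMP against 212 and 290.1 in CMP (log2 difference -1.65, SE 0.148, adjusted p = 9.13e-06). Tet1, which oxidises methylated DNA, read 79.5 and 77.5 in GMP against 166 and 219 in CMP (log2 difference -1.01, SE 0.124, adjusted p = 0.00012), and Hdac9, a deacetylase, read 37.2 and 32.98 in GMP against 85.4 and 116 in CMP (log2 difference -0.98, SE 0.137, adjusted p = 0.000351). GMP arrays were below CMP arrays on each. Chd7, a remodelling enzyme, went the other way, at 77.2 and 94.6 in GMP against 9.07 and 10.6 in CMP (log2 difference 1.49, SE 0.0937, adjusted p = 3.89e-07).

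**Figure D4:**
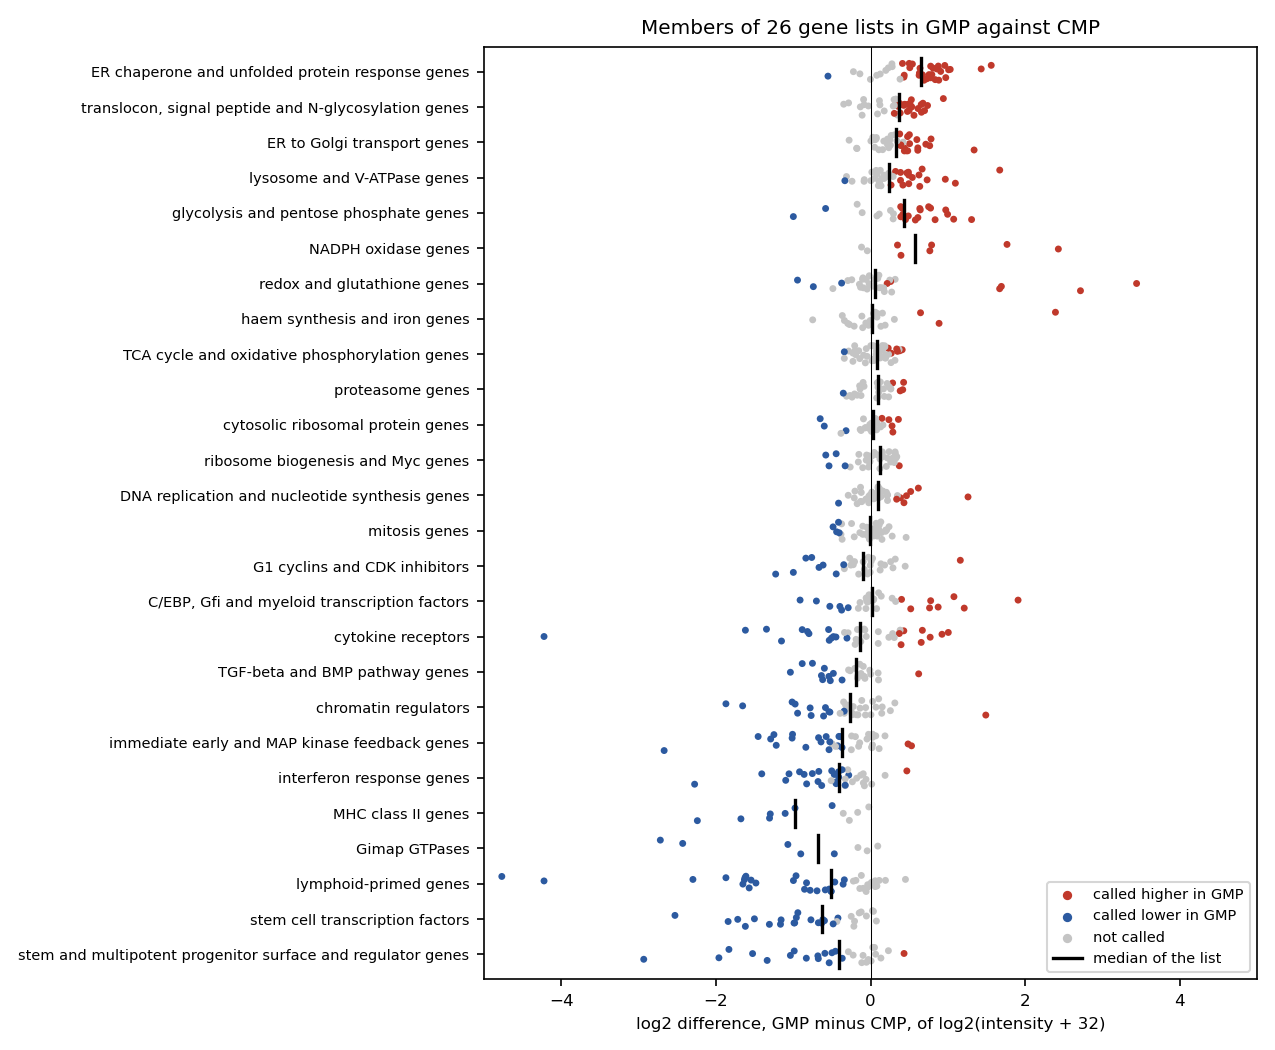
Difference of each member of 26 gene lists, GMP minus CMP on the log2(intensity + 32) scale, 1 point per gene and 1 row per list, in red where called higher in GMP, blue where called lower and grey where not called, with a bar at each list's median. The ER chaperone list has the highest median of the 26 (0.66) and the MHC class II list the lowest (-0.98).

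Antigen presentation genes of class II fell, while those of class I had no common direction. Of 11 MHC class II genes 7 were lower and 0 higher (median -0.98). H2-Ob, a modulator of peptide loading, read 21.9 and 20.3 in GMP against 185 and 258 in CMP (log2 difference -2.24, SE 0.140, adjusted p = 3.57e-07). Cd74, the invariant chain, read 11.5 and 11.1 in GMP against 174 and 61.1 in CMP (log2 difference -1.68, SE 0.266, adjusted p = 0.000894). H2-Aa, a chain of the presenting molecule, read 20.1 and 18.1 in GMP against 120.4 and 72.8 in CMP (log2 difference -1.31, SE 0.168, adjusted p = 0.000175). The CMP arrays lay far apart on Cd74 and above GMP on all 3. H2-Ab1, the other chain, stood at -0.98, and MHC class II protein was gated out of both groups. Ctss, the protease that cuts the invariant chain, stood at -1.3. Of 14 class I genes 4 were higher and 3 lower (median -0.001). Those higher were B2m (0.31), H2-D1 (0.31) and the ER chaperones Calr and Pdia3 (0.76), and those lower were the peptide transporter genes Tap2 and Tap1 (-0.97 and -0.76) and their regulator Nlrc5 (-0.65). H2-D1 had adjusted p = 0.0662 without GMP replicate 2 and 0.0506 without CMP replicate 1. Another of its probe sets was called at -0.94, and class I genes share sequence, so its direction is uncertain.

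The interferon response list was lower in GMP. Of 35 genes 20 were called lower and 1 higher (median -0.41). The count of 20 was 12 and 10 when GMP replicate 1 or 2 was left out, 15 and 9 when CMP replicate 1 or 2 was, and the median stayed below 0. Ifi27l2a, a small interferon-induced protein, read 14.3 and 15.5 in GMP against 216 and 176 in CMP (log2 difference -2.28, SE 0.168, adjusted p = 1.68e-06). Rtp4, a receptor transporter protein, read 33.7 and 29.9 in GMP against 140.2 and 134 in CMP (log2 difference -1.41, SE 0.108, adjusted p = 2.42e-06). Xaf1, a death-promoting protein, read 64.6 and 48.5 in GMP against 160.2 and 153 in CMP (log2 difference -1.1, SE 0.134, adjusted p = 0.00012). Irf9, the DNA-binding part of the interferon-activated complex, read 113 and 97.2 in GMP against 252 and 253 in CMP (log2 difference -1.05, SE 0.153, adjusted p = 0.000457), and GMP were low on both arrays of all 4 genes. Ly6e, a surface protein, was the gene that rose, at 3288 and 3136 in GMP against 2379.9 and 2242 in CMP (0.47), while a second probe set of it was called at -0.81.

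The site to which that complex binds, the interferon response element, was searched as TTTC, 2 bases of any kind and TTTC on both strands of the same windows, where matches may overlap. It was found in 936 of 27025 genes (3.46%) and in 13 of the 23 listed genes with a window. It was in 6 of 12 genes called lower and in 7 of 11 not called, so the share did not rise among those that fell. The 3 genes with a match whose falls were largest are shown to let the fall be set beside the letters, with the fixed letters of a match in capitals. For each gene, 1 match is marked.
Irgm1 (chr11:48871421-48871459, minus strand): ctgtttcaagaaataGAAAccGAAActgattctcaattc
Rsad2 (chr12:26456548-26456587, minus strand): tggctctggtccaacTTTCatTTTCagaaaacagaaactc
Igtp (chr11:58199507-58199546, plus strand): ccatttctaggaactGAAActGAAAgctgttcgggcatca
Irgm1 and Igtp, GTPases that act on vacuoles of microbes, have it as the reverse complement. Irgm1 read 221 and 190.0 in GMP against 378 and 419 in CMP (log2 difference -0.86, SE 0.177, adjusted p = 0.00553), with adjusted p = 0.0671 without GMP replicate 2 and 0.0700 without CMP replicate 2. Rsad2, the antiviral enzyme viperin, read 26.9 and 25.8 in GMP against 68.2 and 64.5 in CMP (log2 difference -0.75, SE 0.0953, adjusted p = 0.000156). Igtp read 116 and 119 in GMP against 209 and 202 in CMP (log2 difference -0.67, SE 0.119, adjusted p = 0.00208). Each of the 3 was lower on both GMP arrays.

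Signalling genes with quick turnover were lower as well. Of 37 immediate early and MAP kinase feedback genes 17 were called lower and 2 higher (median -0.37), with 11 lower without GMP replicate 2 and 8 without CMP replicate 2. After Rgs1, the largest falls were in Dusp2, a MAP kinase phosphatase (178 and 197 in GMP against 495 and 651 in CMP, -1.45), and Ier5 (80.99 and 86.97 in GMP against 247 and 257 in CMP, -1.29). Egr1, a zinc finger factor, read 185 and 160.2 in GMP against 367 and 559 in CMP (log2 difference -1.25, SE 0.180, adjusted p = 0.000438), and Zfp36, which destroys cytokine messages, read 376 and 364 in GMP against 918 and 892 in CMP (log2 difference -1.22, SE 0.0874, adjusted p = 1.29e-06). All 4 genes were without overlap, with the CMP arrays of Egr1 farther apart than its GMP arrays. Fosb stood at -1.01. The genes that rose were Fosl2 (0.53) and Spry2 (0.49). Their adjusted p was 0.0761 and 0.120 without GMP replicate 2, and 0.0726 and 0.129 without CMP replicate 1.

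The TGF-beta and BMP list had 10 of 26 genes lower and 1 higher (median -0.19). The number lower was 5, 6, 9 and 4 without GMP replicate 1, GMP replicate 2, CMP replicate 1 and CMP replicate 2. Eng, a coreceptor of stem and endothelial cells, read 59.4 and 69.7 in GMP against 174 and 158 in CMP (log2 difference -1.04, SE 0.109, adjusted p = 3.33e-05). Tgfbr2, the type II receptor, read 69.7 and 78.3 in GMP against 135 and 197 in CMP (log2 difference -0.88, SE 0.149, adjusted p = 0.00141). Id1, a target of BMP signalling, rose, at 51.8 and 41.4 in GMP against 19.6 and 18.2 in CMP (log2 difference 0.62, SE 0.0957, adjusted p = 0.000708). In the STAT and SOCS list 8 of 26 genes were lower and 1 higher, or 4, 5, 7 and 5 lower with each array left out and 5 after quantile normalization. Pim1, a kinase induced by cytokines, read 273 and 301 in GMP against 482 and 667 in CMP (-0.91), and Socs3, a feedback inhibitor, read 4.35 and 5.74 in GMP against 30.6 and 33.4 in CMP (-0.79).

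Cell cycle genes gave no single direction. The G1 list had 8 of 31 genes lower and 1 higher (median -0.09), the mitosis list 4 of 38 lower and 0 higher, and the DNA replication list 7 of 40 higher and 1 lower (median 0.10). Of all genes 9.36% were lower and 6.56% higher, and the mitosis list, with 10.5% lower, was near the first share. Ccnd1, a cyclin of G1 entry, read 121 and 143 in GMP against 278 and 443 in CMP (log2 difference -1.23, SE 0.172, adjusted p = 0.000352). Ccng2, Btg2, Cdkn1a and Cdkn1b, which restrain the cycle, stood at -1.0, -0.84, -0.76 and -0.67. A cyclin and genes that restrain the cycle were therefore lower together. Gadd45b, a stress gene, rose (1.16). Cdc45, a helicase subunit, and Rrm2, of ribonucleotide reductase, were higher at 1.26 and 0.62, but a second probe set of Cdc45 had -0.42 (adjusted p = 0.0530). The DNA replication genes called higher were 3 without GMP replicate 1, 3 without GMP replicate 2 and 4 without CMP replicate 2. Mitosis genes called lower were 0, 3, 1 and 1 with each array left out, and 1 after common median scaling.

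Of 31 BCL2 family and death genes 8 were lower and 3 higher, with 5 lower without CMP replicate 2 and 1 higher without GMP replicate 1 or CMP replicate 2. The number higher was 6 after quantile or common median scaling, with the filter on dim probe sets and with no intensity trend. Casp6, an executioner caspase, read 72.8 and 62.7 in GMP against 164 and 151 in CMP (-0.93). Bcl2, the survival gene itself, read 851 and 859.9 in GMP against 1573 and 1637 in CMP (log2 difference -0.88, SE 0.0875, adjusted p = 2.07e-05), and all 5 of its probe sets were called lower. Apaf1, which activates caspases, was higher (477 and 500.2 in GMP against 268 and 273 in CMP, 0.78).

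The same GMP arrays were also set against CDP, so the contrasts share them and are given side by side only. Against CDP 2118 genes were higher in GMP (11.6%) and 2864 lower (15.7%). In the ER chaperone list 24 of 40 genes were higher against CDP and 29 against CMP, in the translocon list 25 and 24 of 40, and in the glycolysis list 18 and 17 of 26. The NADPH oxidase list had 2 of 8 genes higher against CDP and 6 against CMP. The lymphoid-primed list had 28 of 39 lower against CDP and 24 against CMP. The stem factor list had 9 of 29 lower and 5 higher against CDP, and 19 lower and 0 higher against CMP. Mean log2(intensity + 32) of the ER chaperone list was 9.63 and 9.62 on the GMP arrays, against 9.02 and 9.05 on CMP, 9.22 and 9.15 on CDP and 9.34 and 9.22 on pre-cDC. For the NADPH oxidase list it was 9.22 and 9.18 in GMP, against 8.37 and 8.45 in CMP, 9.07 and 9.07 in CDP and 9.31 and 9.25 in pre-cDC. In the first list GMP stood above the other groups, and in the second CMP stood below them. The stem factor list had 6.84 and 6.98 in GMP, against 7.66 and 7.70 in CMP, 7.08 and 7.11 in CDP and 6.35 and 6.32 in pre-cDC, so GMP lay between CDP and pre-cDC. The interferon list was lowest in GMP, at 6.71 and 6.62, against 7.15 and 7.14 in CMP, 7.14 and 7.03 in CDP and 7.66 and 7.54 in pre-cDC.

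**Figure D5:**
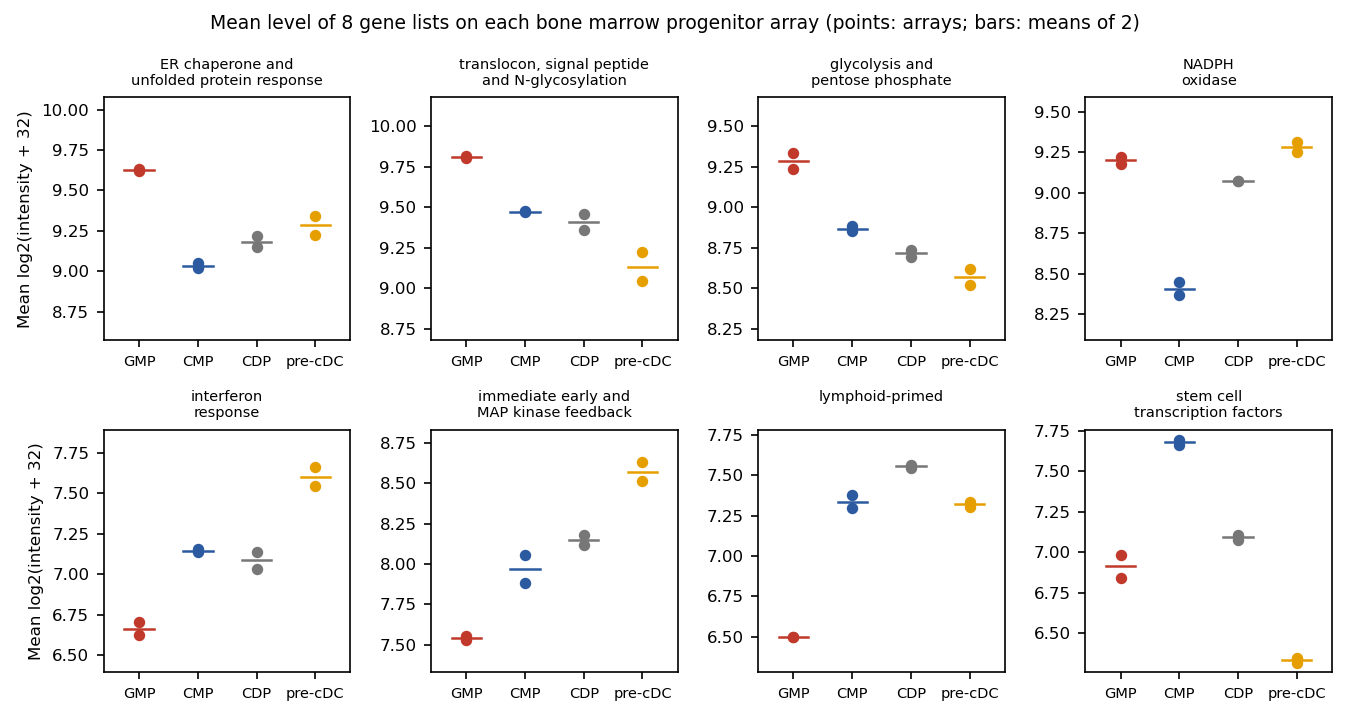
Mean log2(intensity + 32) over the members of 8 gene lists on each of the 8 bone marrow progenitor arrays, with 1 point per array and a bar at the mean of each group; the vertical axes span the same length but start at different values. The ER chaperone, translocon and glycolysis lists are highest in GMP, the NADPH oxidase list is lowest in CMP, and the interferon, immediate early and lymphoid-primed lists are lowest in GMP.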

How the data were processed

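RNA of sorted cells was hybridised to 3′ Affymetrix arrays, and the authors deposited 1 value table of linear intensities for 45037 probe sets and 15 arrays, and no label or header used here records how these were processed. Probe sets were named from the platform annotation, with symbols updated through RefSeq (18032 of 18193 genes matched); 932 probe sets with several genes and 9160 with none were left out. Deposited intensities were taken as log2(intensity + 32), with no further scaling. The 8 bone marrow progenitor arrays (medians 15.95 to 17.44) were fitted with limma 3.58.1 in R 4.3.3 (lmFit, eBayes with an intensity trend, 4 residual degrees of freedom). P-values are two-sided and were adjusted by Benjamini and Hochberg's method across the 34945 probe sets, with a threshold of 0.05. Arrays of a group correlated at 0.996 in GMP and 0.996 in CMP, and only 2 arrays a group limit the precision. The script was tested on simulated data. The genes named were those with the largest changes in each list, or with a motif match, and the genes, lists and members were chosen with earlier results of these data known. Alternatives were other offsets, a filter on dim probe sets, quantile and median scaling, a fit of 4 arrays, no trend, a replicate block, other probe sets and leaving out each array. Promoter windows came from RefSeq (GRCm38.p6). Figures were drawn with matplotlib 3.10.9.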

Additional observations from a re-analysis of the deposited data

Results flagged for a closer look

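Probe sets that name no gene or several genes took no part in the comparison. Of 10092 such probe sets 631 were called in GMP against CMP by limma, 189 higher and 442 lower. The largest rise, in a probe set with no single gene, had 694 and 810.1 in GMP against 22.2 and 20.2 in CMP (log2 difference 3.88).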

How the results depend on the processing

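Across an offset of 8 and one 4 times the 32 used, a filter on dim probe sets, quantile and median scaling, a fit of the 4 arrays alone, no trend and the replicate block, 4702 to 5852 probe sets and 2806 to 3348 genes were called, against 4967 and 2897. The 412 genes called with at least 2-fold became 707 with an offset of 8 and 157 with the larger one, since the offset shrinks dim differences. The arrays are titled WT1 and WT2 in each group. Deviations of the arrays by these numbers correlated at 0.00644 between CMP and GMP. For the other pairs of the 4 groups fitted the correlation was 0.0740 to 0.237. With 2 arrays a group, whether a shared number marks a pair cannot be told. With the replicate block 5758 probe sets and 3281 genes were called and no call among 200 named genes changed. Leaving out 1 array, where the lone array is assumed to vary like the other groups, gave 2427 to 3489 probe sets, 1554 to 2076 genes, 700 to 831 higher, 831 to 1245 lower and 393 to 474 with at least 2-fold. Called higher were 26 to 28 ER chaperone, 12 to 14 translocon, 9 to 12 ER to Golgi, 11 to 13 glycolysis, 4 to 5 NADPH oxidase and 11 to 13 lysosome genes. Called lower were 16 to 20 stem factor, 13 to 15 stem surface, 21 to 23 lymphoid-primed, 9 to 15 interferon and 8 to 17 immediate early genes. Fewer arrays were fitted there, and no other cause was tested. Other probe sets of opposite sign gave Abcb10 -0.0290, Afap1 -0.0242, Arsb -0.0771, Bcl11a 0.0207, Calcrl 0.108, Cdc45 -0.419, Epb41l4b 0.00884, Fcgr2b -0.0718, Galns -0.0503, H2-Aa 0.292, H2-D1 -0.942 and -0.0777 and -0.0711, Il6st 0.0308, Ly6e -0.808, Mgst1 -0.0171, Pdia4 -0.0270, Pdia6 -0.00993, Rtp4 0.0171, Runx1 0.00832, Slc2a3 0.0328 and 0.0983, Tap1 0.0305, Tet1 0.0115, Tgfbr2 0.171 and 0.0252, Zfpm1 0.0218. Of these the lowest of H2-D1 and that of Ly6e were called, and the cause was not tested.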
